A study of Homo sapiens with 9 samples.

Results

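30 genes of hypoxia sensing and of the transcriptional response to low oxygen were followed through RNA sequencing of the established human line PANC-1, which was derived from a carcinoma of the pancreatic duct. The genes were taken by name from the deposited table of 58735 genes: HIF1A, EPAS1, ARNT, EGLN1, EGLN2, EGLN3, HIF1AN, VHL, BNIP3, BNIP3L, CA9, CA12, VEGFA, ADM, ANKRD37, NDRG1, PLOD1, PLOD2, P4HA1, P4HA2, LOX, LOXL2, ANGPTL4, MXI1, BHLHE40, BHLHE41, INSIG2, FAM162A, STC1 and HILPDA, with glycolytic enzymes left out. By their titles, the 9 libraries of polyadenylated RNA are 3 of NC, 3 of ACSS2-KO-2 and 3 of ACSS2-KO-3. The knockouts target ACSS2, an acetyl-CoA synthetase that uses acetate. The labels do not say what NC and the numbers 2 and 3 mean, or whether a knockout is 1 clone or a mixed population. The treatment labels of the 6 knockout libraries carry a running number (ACSS2-KO to ACSS7-KO), so the titles were used. No label names an oxygen level or any other treatment, so these are levels in cells for which hypoxia was not stated. Separate cultures are not stated for the 3 libraries within a group, so the p-values measure the spread among these libraries alone, and that spread may be technical.

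Hypoxia-inducible factors (HIFs) are pairs of an oxygen-labile alpha subunit, HIF-1 alpha (gene HIF1A) or HIF-2 alpha (EPAS1), and the stable partner ARNT. When oxygen is present, prolyl hydroxylases (EGLN1, EGLN2 and EGLN3) mark the alpha subunit for VHL, the substrate receptor of a ubiquitin ligase, and the asparaginyl hydroxylase HIF1AN blocks its activation domain, so that the control acts mainly on the protein. When oxygen is short, the dimer binds a short core sequence in its target genes, which serve mitophagy, pH balance, vessel growth, collagen crosslinking and lipid storage. Pancreatic ductal carcinoma is known as a poorly perfused, collagen-rich tumour.

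The core of the hypoxia response element, ACGTG or GCGTG, was searched on both strands in windows from 250 bases before to 50 bases after the gene starts of RefSeq (GRCh38.p14). A palindrome such as CACGTG was counted on each strand. Of the 30 genes, 23 had at least 1 window and 19 of these (82.6%) held either form in 1 or more windows, against 14318 of 27305 genes (52.4%) in the whole table. For ACGTG alone the numbers were 14 of 23 (60.9%) and 6790 of 27305 (24.9%). Per window, 17 of 30 windows of these genes (56.7%) and 7518 of all 35116 windows (21.4%) held ACGTG. A match is a description of the letters, not of binding. The genes were listed as hypoxia genes, so an excess of this core may follow from the choice. The GC content of the windows was not matched. The windows below are those of the 3 genes that fell in both knockouts and have a window (BNIP3, BHLHE41 and PLOD1), of EPAS1, which rose in both with the counts as deposited, of PLOD2 and BHLHE40, which fell in ACSS2-KO-3, and of CA9, whose element next to the start is a textbook hypoxia response element. They were chosen after the values were seen. Each is printed 5′ to 3′ on the strand of the gene, with both forms of the core and their reverse complements in capitals.
BNIP3: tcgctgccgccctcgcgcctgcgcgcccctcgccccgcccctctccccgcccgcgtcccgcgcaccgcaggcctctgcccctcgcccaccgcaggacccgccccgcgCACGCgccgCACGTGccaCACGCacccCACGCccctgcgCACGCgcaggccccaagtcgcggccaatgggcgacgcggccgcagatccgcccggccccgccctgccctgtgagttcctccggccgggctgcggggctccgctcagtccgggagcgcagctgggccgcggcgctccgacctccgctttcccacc
BHLHE41: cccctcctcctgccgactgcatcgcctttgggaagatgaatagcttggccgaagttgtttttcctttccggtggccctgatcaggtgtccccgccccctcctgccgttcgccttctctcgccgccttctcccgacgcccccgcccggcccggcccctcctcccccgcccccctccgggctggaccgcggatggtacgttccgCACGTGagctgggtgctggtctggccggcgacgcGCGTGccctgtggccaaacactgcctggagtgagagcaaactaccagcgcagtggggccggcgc
PLOD1: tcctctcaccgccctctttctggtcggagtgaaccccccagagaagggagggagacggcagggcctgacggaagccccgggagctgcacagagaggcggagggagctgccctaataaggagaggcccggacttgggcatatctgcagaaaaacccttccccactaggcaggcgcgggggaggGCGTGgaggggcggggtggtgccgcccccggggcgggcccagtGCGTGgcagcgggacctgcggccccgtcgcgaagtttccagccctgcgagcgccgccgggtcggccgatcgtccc
EPAS1: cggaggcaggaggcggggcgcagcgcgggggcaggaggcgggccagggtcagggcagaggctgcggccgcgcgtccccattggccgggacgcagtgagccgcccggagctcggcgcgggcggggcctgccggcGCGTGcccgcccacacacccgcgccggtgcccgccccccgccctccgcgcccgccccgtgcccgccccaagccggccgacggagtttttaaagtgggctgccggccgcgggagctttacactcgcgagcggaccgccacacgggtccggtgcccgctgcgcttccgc
PLOD2: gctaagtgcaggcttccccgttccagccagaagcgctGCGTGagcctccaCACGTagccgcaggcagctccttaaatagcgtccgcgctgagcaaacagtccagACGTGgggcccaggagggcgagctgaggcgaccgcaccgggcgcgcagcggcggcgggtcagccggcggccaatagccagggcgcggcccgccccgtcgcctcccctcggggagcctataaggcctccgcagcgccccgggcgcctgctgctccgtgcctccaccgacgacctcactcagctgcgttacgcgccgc
BHLHE40: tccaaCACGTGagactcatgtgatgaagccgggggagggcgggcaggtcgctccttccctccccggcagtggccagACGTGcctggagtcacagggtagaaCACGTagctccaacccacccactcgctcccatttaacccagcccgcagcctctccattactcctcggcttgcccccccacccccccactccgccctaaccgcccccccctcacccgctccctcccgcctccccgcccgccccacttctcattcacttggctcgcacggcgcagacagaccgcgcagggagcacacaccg
CA9: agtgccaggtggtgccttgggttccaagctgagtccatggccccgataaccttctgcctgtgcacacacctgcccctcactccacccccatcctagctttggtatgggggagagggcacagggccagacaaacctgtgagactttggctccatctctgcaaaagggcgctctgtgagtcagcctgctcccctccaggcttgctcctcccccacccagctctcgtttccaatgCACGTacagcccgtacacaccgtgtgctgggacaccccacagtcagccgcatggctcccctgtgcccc
BNIP3 (chr10:131981874-131982173, minus strand) held 6 matches, more than any other window of these genes, all between bases -143 and -100 counted from the start. BHLHE41 (chr12:26124988-26125287, minus) held 3, PLOD1 (chr1:11934467-11934766, plus) 2, EPAS1 (chr2:46297157-46297456, plus) 1, PLOD2 (chr3:146161135-146161434, minus) 3, BHLHE40 (chr3:4979187-4979486, plus) 4 and CA9 (chr9:35673678-35673977, plus) 1, at base -18. Of the other genes that fell in ACSS2-KO-3 with counts as deposited, ANGPTL4, LOX, MXI1, P4HA1, INSIG2, FAM162A and HIF1A also held at least 1 match. The falls of P4HA1, INSIG2, FAM162A and HIF1A were lost with the offsets described below. Of the genes that rose there, ADM held 1 GCGTG, and the windows of ARNT and HIF1AN held none. Matches were also found in genes that did not fall. ANKRD37 (3), EGLN2 (2) and EGLN1 (1) passed in neither knockout with counts as deposited, and CA12 (2) rose in ACSS2-KO-2. The windows of EGLN3 and P4HA2 held none.

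Library totals ran from 14756572 to 17457190 counts. The unit below is CPM, the count scaled with TMM factors to the library's sum over the 15811 genes tested. Means are given ± SD over the 3 libraries of a group. The targeted gene ACSS2 fell to 45.8% of its NC level in the libraries of ACSS2-KO-2 (edgeR adjusted p 5.26e-09). In those of ACSS2-KO-3 it fell to 26.4% (1.49e-14). All 5 ductal epithelial keratin and EpCAM markers were present in all groups, with summed levels of 4408 to 4442 CPM (NC), 4075 to 4494 CPM (ACSS2-KO-2) and 5237 to 5895 CPM (ACSS2-KO-3). The summed acinar, islet, immune and erythroid markers were each at most 0.515 CPM in any library, and 4 of the 5 endothelial markers were at or near 0, the sum of at most 5.92 CPM being mainly KDR. In ACSS2-KO-3 the fold changes of all genes followed the GC content of their transcripts (Spearman correlation 0.50 across 15804 genes, against -0.001 in ACSS2-KO-2). Each ACSS2-KO-3 library showed this against NC (0.49 to 0.53), while single NC libraries against the other NC libraries gave -0.28 to 0.19. Fold changes of ACSS2-KO-3 against NC are therefore also given with offsets (ratios of summed counts aside), a correction fitted per library to the GC content and length of 1 transcript per gene, which brought the correlation to -0.008. A second form, with both measures averaged over a gene's transcripts, was chosen after seeing the data.

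In ACSS2-KO-2, EPAS1 and the 2 nearly silent genes EGLN3 and CA12 rose, and the mitophagy receptors BNIP3 and BNIP3L, the lipid-droplet protein gene HILPDA, the collagen lysyl hydroxylase PLOD1 and the repressor BHLHE41 fell. In ACSS2-KO-3, 16 of these genes fell with the counts as deposited, among them PLOD2, LOX, MXI1, HILPDA, VEGFA and NDRG1. HIF1A was also among the 16, but its fall was lost with the offsets (log2 fold change 0.09, edgeR adjusted p 0.209). Another 6 genes rose, among them ADM, LOXL2, HIF1AN and VHL. Of the 30 genes 29 passed the filter on low counts, and CA9 did not. In ACSS2-KO-2, 3 of 29 rose and 5 fell (edgeR quasi-likelihood test, Benjamini-Hochberg adjusted p under 0.05), beside 3.81% of the 15811 genes tested upward and 2.84% downward. Of the 3 rises, EGLN3 and CA12 passed the filter only through the ACSS2-KO-2 libraries, where they were high. In ACSS2-KO-3, 6 of 29 rose and 16 fell, beside 31.2% and 32.1% of all genes. Between the knockouts, 6 were higher and 16 lower in ACSS2-KO-3, against backgrounds of 31.2% and 30.5%. The 16 included EGLN3 and CA12, whose lower values here were favoured by the same filter and are no independent support. For ACSS2-KO-2 the 29 genes had a median log2 fold change of -0.059, beside -0.0031 over all genes tested. For ACSS2-KO-3 it was -0.36 beside -0.037, and for the knockouts against each other -0.23 beside -0.023.

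With the offsets, 3 rose and 6 fell in ACSS2-KO-2, the sixth being P4HA1, beside 5.66% and 3.98% of all genes. In ACSS2-KO-3, 4 rose and 12 fell with them, beside 32.4% and 26.5%, and the median of the 29 was -0.18 beside 0.0097 over all genes. Between the knockouts 6 were higher and 11 lower, beside 30.3% and 25.0%. With the averaged offsets the counts were 3 and 6 (background 5.57% and 4.05%), 6 and 13 (32.9% and 26.6%), and 7 and 12 (30.7% and 25.0%). Of the 16 falls in ACSS2-KO-3, 11 passed downward in all 3 fits: BNIP3, VEGFA, NDRG1, PLOD1, PLOD2, LOX, ANGPTL4, MXI1, BHLHE40, BHLHE41 and HILPDA. Of the 6 rises, HIF1AN, VHL, ADM and LOXL2 passed upward in all 3. All 8 calls of ACSS2-KO-2 kept their direction and passed in all 3. That of BNIP3L was lost in other fits, such as DESeq2 (adjusted p 0.157). The share of all genes passing in all 3 fits was not taken. The counts of calls held in all 3 fits are thus no result about the 29 genes as a set. Because the 3 NC libraries serve both comparisons, the values of the knockouts are given side by side and no overlap is read from them.

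**Figure D1:**
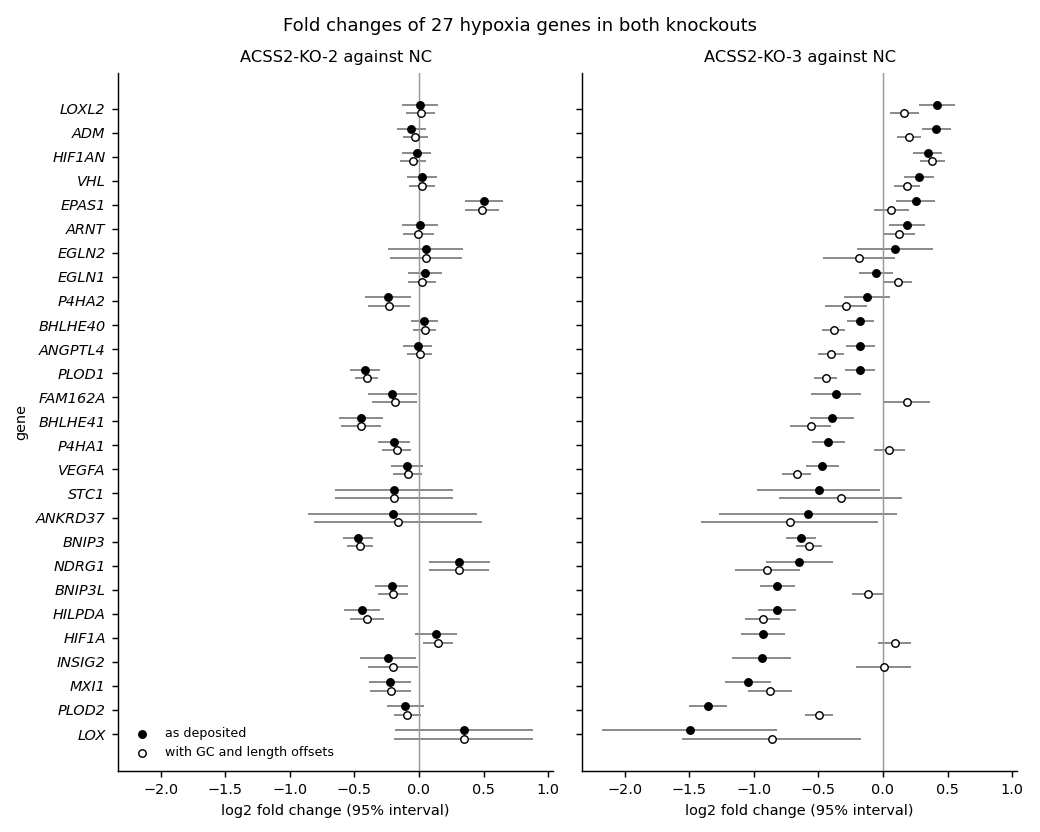
Log2 fold changes of 27 hypoxia genes against NC (EGLN3 and CA12, with few counts, and the untested CA9 are left out), with 95% intervals, from the counts as deposited (filled points) and with GC and length offsets (open points), for ACSS2-KO-2 (left) and ACSS2-KO-3 (right), sorted by the ACSS2-KO-3 value. In ACSS2-KO-2 both kinds of points nearly coincide, while in ACSS2-KO-3 HIF1A moves from -0.93 to 0.09 and HILPDA stays low at -0.82 and -0.93.

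Scaled to exon length, the level of the 30 genes in NC ran from 52.7 CPM per kilobase for PLOD1, 50.5 for BHLHE40 and 49.9 for ADM, with SDs of 1.35, 1.11 and 0.686, to under 1 for STC1, ANKRD37, LOX, CA9, CA12 and EGLN3. The NC libraries of PLOD1 overlapped with those of BHLHE40, and those of BHLHE40 with those of ADM. Among the regulators VHL stood highest, at 26.4 ± 0.938 CPM per kilobase, then HIF1A at 17.5 ± 1.23 and EGLN1 at 9.54 ± 0.211. ARNT and HIF1AN lay within each other's spread at 8.74 ± 0.355 and 8.52 ± 0.357, above EPAS1 at 4.22 ± 0.204 and EGLN2 at 1.32 ± 0.0451.

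Of the HIF subunits, HIF1A (chr14:61695513-61748259, exons of 5151 bases) was read at 96.6, 83.9 and 89.7 CPM in the NC libraries, at 93.3, 99.8 and 103 CPM in the ACSS2-KO-2 libraries and at 43.3, 56.7 and 41.8 CPM in the ACSS2-KO-3 libraries. The ACSS2-KO-3 libraries lay below all others, whereas those of ACSS2-KO-2 overlapped with NC. HIF1A fell to 52.6% of NC in ACSS2-KO-3 (edgeR adjusted p 1.82e-10, log2 fold change -0.93, SE 0.083). With the offsets it stood at 0.09 (adjusted p 0.209), and with the averaged offsets at 0.04 (0.604). Its transcript has a GC content of 36.4%, the lowest of the 29 genes, in a range (under 40%) where the median of all genes was -0.90 in ACSS2-KO-3. In ACSS2-KO-2 HIF1A did not pass (0.13, adjusted p 0.383).

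EPAS1 (chr2:46293667-46386703, exons of 7302 bases) had levels of 29.1, 31.4 and 31.9 CPM in the NC libraries, of 41.1, 45.4 and 44.6 CPM in those of ACSS2-KO-2 and of 35.4, 37.2 and 37.6 CPM in those of ACSS2-KO-3. The 3 groups did not overlap, with NC lowest and ACSS2-KO-2 highest. In ACSS2-KO-2, EPAS1 rose to 142% of NC (log2 fold change 0.50, SE 0.071, edgeR adjusted p 1.62e-05; 0.49 with the offsets). In ACSS2-KO-3 it rose to 119% (0.25, SE 0.073, edgeR adjusted p 0.00364), a call that was lost with the offsets (0.06, adjusted p 0.424). In these bulk libraries a lower share of cells with a transcript and less of it per cell cannot be told apart. Between the knockouts EPAS1 was lower in ACSS2-KO-3 in both fits (-0.25, adjusted p 0.00301, and -0.43, 8.47e-07). Per exon length, the EPAS1 level lay between 0.213 and 0.264 of the HIF1A level in the NC libraries, between 0.305 and 0.321 of it in those of ACSS2-KO-2 and between 0.463 and 0.635 in those of ACSS2-KO-3, with no overlap between the groups. The ratio was taken from the counts as deposited, without the offsets that removed the fall of HIF1A.

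ARNT, the shared partner, had 56.9 ± 2.31 CPM across the NC libraries, 57.1 ± 4.63 CPM across those of ACSS2-KO-2 and 64.9 ± 3.73 CPM across those of ACSS2-KO-3 (SD, n = 3 each). Its rise in ACSS2-KO-3 (edgeR adjusted p 0.0175, log2 fold change 0.19) was lost with the offsets (0.13, 0.0656). It was lost as well when NC replicate 1 (0.16, 0.0748) or ACSS2-KO-3 replicate 3 (0.15, 0.0927) was left out.

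Among the oxygen sensors, the main prolyl hydroxylase EGLN1 (PHD2) did not pass in either knockout. It was read at 69.1, 67.9 and 70.9 CPM in the NC libraries, at 67.2, 69.8 and 77.3 CPM in the ACSS2-KO-2 libraries and at 64.6, 71.4 and 64.3 CPM in the ACSS2-KO-3 libraries, so that all groups overlapped. For ACSS2-KO-2 the 95% interval of its log2 fold change ran from -0.088 to 0.18, and for ACSS2-KO-3 from -0.19 to 0.079. With the averaged offsets EGLN1 rose in ACSS2-KO-3 (0.20, edgeR adjusted p 0.00145), but not with those from 1 transcript (0.12, 0.0565). EGLN2 (PHD1) had 8.71 ± 0.297 CPM in the NC libraries, 8.98 ± 2.14 CPM in those of ACSS2-KO-2 and 9.29 ± 0.918 CPM in those of ACSS2-KO-3, and did not pass in any comparison (0.09 in ACSS2-KO-3, edgeR adjusted p 0.581; -0.18 with the offsets, 0.254). The third hydroxylase, EGLN3, was nearly absent from NC and is described with the genes of few counts.

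HIF1AN, the asparaginyl hydroxylase FIH, had levels of 116, 116 and 125 CPM in the NC libraries, of 115, 115 and 123 CPM in those of ACSS2-KO-2 and of 153, 146 and 155 CPM in those of ACSS2-KO-3. All ACSS2-KO-3 libraries lay above the other 6. It rose to 127% of NC in ACSS2-KO-3 (log2 fold change 0.35, SE 0.055, edgeR adjusted p 3.47e-06; 0.38 with the offsets), and the difference between the knockouts passed as well (0.36, 1.78e-06). VHL rose to 121% of NC in ACSS2-KO-3, from 111 ± 3.95 to 135 ± 9.36 CPM (0.28, SE 0.057, 0.000128; 0.19 with the offsets, 0.00146), and measured 113 ± 1.53 CPM in ACSS2-KO-2, where it did not pass (0.02, 0.884). HIF1AN and VHL both act against HIF activity at the protein level.

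**Figure D2:**
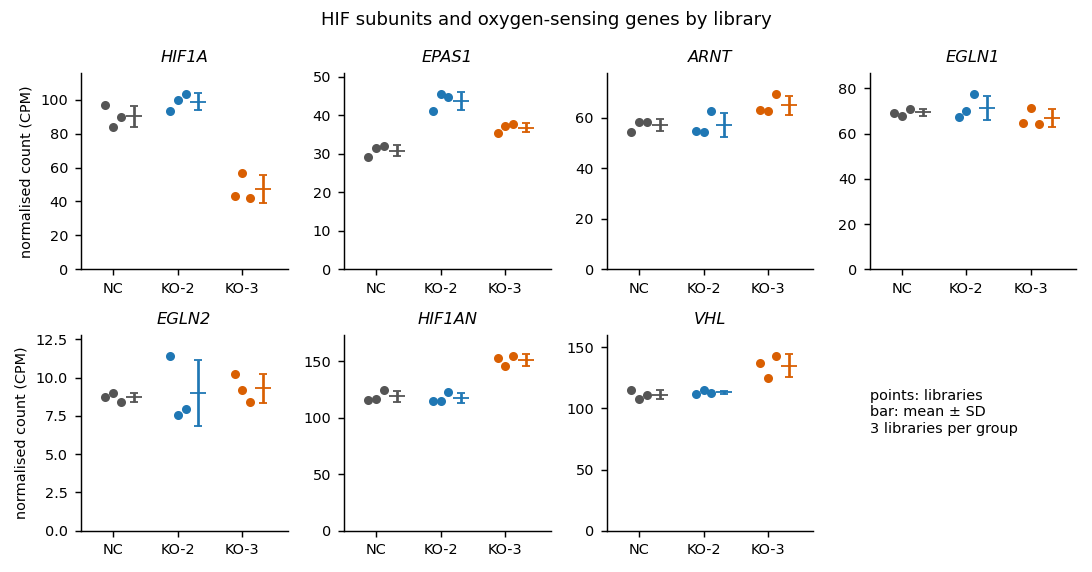
CPM of the 3 HIF subunit genes, of EGLN1, EGLN2, HIF1AN and VHL in each library (points, in the order of the replicate numbers), with mean and SD of the 3 libraries of a group beside them; all axes start at 0. HIF1A is low in the ACSS2-KO-3 libraries (41.8 to 56.7 CPM), EPAS1 highest in ACSS2-KO-2 (41.1 to 45.4 CPM), and HIF1AN and VHL highest in ACSS2-KO-3.

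BNIP3 and BNIP3L encode related receptors of the outer mitochondrial membrane that recruit the autophagy machinery, and both are standard HIF-1 targets. BNIP3 (chr10:131966455-131982013) was read at 100, 97.7 and 96.3 CPM in the NC libraries, at 71.4, 68.8 and 71.6 CPM in the ACSS2-KO-2 libraries and at 62.4, 65.6 and 61.4 CPM in the ACSS2-KO-3 libraries. The 3 groups did not overlap, with NC highest and ACSS2-KO-3 lowest. In ACSS2-KO-2, BNIP3 fell to 72.0% of NC (log2 fold change -0.47, SE 0.056, edgeR adjusted p 1.02e-06; 72.8% with the offsets). In ACSS2-KO-3 it fell to 64.4% (-0.64, SE 0.057, edgeR adjusted p 1.97e-10; 67.2% with the offsets). The step between the knockouts was small (-0.16, edgeR adjusted p 0.0179) and was lost with the offsets (-0.11, 0.0591), in the unfiltered fit (0.0529) and in DESeq2 (0.057). It was also lost on leaving out replicate 1 or 3 of ACSS2-KO-2 or of ACSS2-KO-3 (0.0537 to 0.0692).

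BNIP3L (chromosome 8) had levels of 59.7, 58.4 and 56.4 CPM in the NC libraries, of 50.6, 49.3 and 50.8 CPM in those of ACSS2-KO-2 and of 31.6, 32.9 and 34.4 CPM in those of ACSS2-KO-3, again without overlap. Its fall to 86.4% of NC in ACSS2-KO-2 passed narrowly (-0.21, edgeR adjusted p 0.0388) and was lost on leaving out any of the 6 libraries compared (adjusted p 0.0667 to 0.179). Its fall to 56.7% in ACSS2-KO-3 (-0.82, 2.17e-11) depended on which transcripts gave the GC content, with -0.12 (0.104) from 1 transcript and -0.64 (1.02e-10) from the average. BNIP3L shares 330 of its 4307 exon bases with PNMA2 on the opposite strand, and the strand setting of the counting is not given. FAM162A, a mitochondrial protein induced by HIF-1, fell in ACSS2-KO-3 from 34.5 ± 4.61 to 26.9 ± 1.65 CPM (-0.36, 0.00163), a call lost with the offsets (0.18, 0.069) and with the averaged ones (-0.06, 0.575). With the offsets and a replicate block it passed upward (0.19, edgeR adjusted p 0.0284), so its direction depended on the setting. Its ACSS2-KO-2 libraries, at 29.8 ± 3.70 CPM, overlapped with NC (-0.21, 0.21).

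Of the secreted factors, VEGFA, the main growth factor of blood vessels, and ADM, the vasodilator adrenomedullin, moved in opposite directions in ACSS2-KO-3. VEGFA (chr6:43770184-43786487) was read at 75.7, 76.6 and 80.5 CPM in the NC libraries, at 73.3, 73.8 and 71.4 CPM in the ACSS2-KO-2 libraries and at 51.9, 59.6 and 56.5 CPM in the ACSS2-KO-3 libraries. The ACSS2-KO-3 libraries lay well below the rest, and those of ACSS2-KO-2 just below NC. VEGFA fell to 72.2% of NC in ACSS2-KO-3 (log2 fold change -0.47, SE 0.062, edgeR adjusted p 2.14e-07) and to 62.9% with the offsets (-0.67, 8.39e-12), whereas it did not pass in ACSS2-KO-2 (-0.09, 0.449). ADM (chr11:10304680-10307397) had levels of 136, 134 and 138 CPM in the NC libraries, of 137, 122 and 131 CPM in those of ACSS2-KO-2 and of 184, 181 and 177 CPM in those of ACSS2-KO-3. All ACSS2-KO-3 libraries were above the other 6, and ADM rose to 133% of NC (0.41, SE 0.053, 1.47e-07; 0.20 with the offsets, 0.000398).

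ANGPTL4, an inhibitor of lipoprotein lipase, fell in ACSS2-KO-3 from 97.6 ± 2.4 to 86.5 ± 2.81 CPM, or 88.6% of NC (edgeR adjusted p 0.00793, log2 fold change -0.17), and with the offsets to 75.6% (-0.40, 1.4e-08). In ACSS2-KO-2 it stood at 96.9 ± 2.83 CPM and did not pass (-0.01, 0.945). STC1, the calcium-regulating hormone stanniocalcin 1, had 3.02 ± 0.457 CPM across NC and 2.13 ± 0.605 CPM across ACSS2-KO-3, with 2.64 ± 0.161 CPM across ACSS2-KO-2. It did not pass in ACSS2-KO-3 (-0.50, 0.0619; -0.33 with the offsets, 0.231), but it passed without ACSS2-KO-3 replicate 1 (-0.74, 0.0151) and without NC replicate 1 (-0.59, 0.0468).

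Of the 6 genes that modify collagen, the lysyl hydroxylases PLOD1 and PLOD2 prepare lysines for crosslinking, the prolyl hydroxylase subunits P4HA1 and P4HA2 stabilise the triple helix, and LOX and LOXL2 form the crosslinks. PLOD1 and PLOD2, with 52.7 ± 1.35 and 40.3 ± 0.197 CPM per kilobase of exon in NC, differed in which knockout was lower. PLOD1 (chr1:11934205-11975538) was read at 272, 285 and 284 CPM in the NC libraries, at 216, 218 and 195 CPM in the ACSS2-KO-2 libraries and at 248, 232 and 263 CPM in the ACSS2-KO-3 libraries, so that the groups did not overlap and ACSS2-KO-2 was lowest. In ACSS2-KO-2 it fell to 74.8% of NC (log2 fold change -0.42, SE 0.056, edgeR adjusted p 6.88e-06). Its fall to 88.3% in ACSS2-KO-3 (-0.18, SE 0.056, 0.00669) no longer passed without ACSS2-KO-3 replicate 2 (-0.13, 0.0639). With the offsets both values lay close together, at 75.5% and 73.6%, and the difference between the knockouts no longer passed (-0.04, 0.501, against 0.24, 0.000554).

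PLOD2 (chr3:146069440-146163653) had levels of 310, 309 and 307 CPM in the NC libraries, of 271, 293 and 296 CPM in those of ACSS2-KO-2 and of 101, 140 and 120 CPM in those of ACSS2-KO-3. It fell to 39.1% of NC in ACSS2-KO-3 (-1.35, SE 0.073, edgeR adjusted p 7.43e-15), or to 71.0% with the offsets (-0.49, 2.01e-09), so the call held while its size shrank. The ACSS2-KO-2 libraries lay just below NC without passing (-0.10, 0.454). The PLOD2 transcript has a GC content of 37.6%.

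P4HA1 was read at 71.5, 72.8 and 66.2 CPM in the NC libraries, at 60.6, 62.4 and 61.3 CPM in the ACSS2-KO-2 libraries and at 51.0, 51.7 and 54.1 CPM in the ACSS2-KO-3 libraries, with no overlap. Its fall to 74.5% of NC in ACSS2-KO-3 (-0.42, edgeR adjusted p 9.54e-07) turned to 0.05 with the offsets (0.466) and to a rise of 0.23 with the averaged ones (0.000859), and in ACSS2-KO-2 it missed the threshold (-0.19, 0.055) but passed with both (-0.17, 0.0457, and -0.18, 0.0412) and without NC replicate 3, ACSS2-KO-3 replicate 2 or ACSS2-KO-3 replicate 3 (0.0423 to 0.05). The direction of P4HA1 in ACSS2-KO-3 thus depended on the setting. P4HA2 did not pass in either knockout with the counts as deposited (28.2 ± 2.28 CPM for NC, 23.9 ± 1.97 CPM for ACSS2-KO-2 and 25.9 ± 1.81 CPM for ACSS2-KO-3). It fell in ACSS2-KO-3 with the offsets (-0.29, 0.0027).

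LOX, a weakly expressed gene here, had levels of 2.37, 1.49 and 1.49 CPM in the NC libraries, of 2.57, 2.37 and 1.87 CPM in those of ACSS2-KO-2 and of 0.719, 0.547 and 0.617 CPM in those of ACSS2-KO-3. The ACSS2-KO-3 libraries lay below all others, and LOX fell to 35.4% of NC (log2 fold change -1.50, SE 0.33, edgeR adjusted p 0.000284), at a log2 fold change of -0.86 with the offsets (0.0291). Its relative LOXL2 moved the other way, from 93.8, 109 and 108 CPM in NC to 142, 124 and 149 in ACSS2-KO-3, against 99.9, 109 and 104 in ACSS2-KO-2. LOXL2 rose to 134% of NC in ACSS2-KO-3 (0.42, SE 0.067, 4.56e-06) and to 112% with the offsets (0.16, 0.0104).

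Of the transcriptional repressors among these genes, MXI1, an antagonist of MYC, fell most in ACSS2-KO-3. It was read at 27.8, 28.6 and 28.0 CPM in the NC libraries, at 23.9, 25.1 and 23.3 CPM in the ACSS2-KO-2 libraries and at 14.5, 13.9 and 12.5 CPM in the ACSS2-KO-3 libraries, with no overlap between groups. MXI1 fell to 48.5% of NC in ACSS2-KO-3 (-1.04, SE 0.087, edgeR adjusted p 4.37e-11; 54.4% with the offsets) and did not pass in ACSS2-KO-2 (-0.23, 0.0987). BHLHE41 (DEC2) had levels of 31.1, 30.6 and 32.8 CPM in the NC libraries, of 22.5, 21.5 and 25.2 CPM in those of ACSS2-KO-2 and of 25.0, 21.9 and 25.1 CPM in those of ACSS2-KO-3. Both knockouts lay below NC and overlapped each other, at 73.3% (-0.45, 0.000533) and 76.1% (-0.39, 0.00015; -0.56 with the offsets). BHLHE40 (DEC1) fell in ACSS2-KO-3 to 88.6% of NC, from 194 ± 4.26 to 172 ± 5.06 CPM (-0.17, 0.00431; -0.38 with the offsets), and did not pass in ACSS2-KO-2 at 199 ± 6.97 CPM (0.04, 0.725).

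HILPDA (chr7:128455849-128458418) encodes a lipid-droplet protein that inhibits the lipase ATGL. It was read at 54.3, 55.2 and 54.3 CPM in the NC libraries, at 38.8, 39.4 and 42.2 CPM in the ACSS2-KO-2 libraries and at 31.5, 28.3 and 33.1 CPM in the ACSS2-KO-3 libraries. The groups formed 3 separate levels. In ACSS2-KO-2, HILPDA fell to 73.6% of NC (log2 fold change -0.44, SE 0.069, edgeR adjusted p 5.99e-05; 75.7% with the offsets). In ACSS2-KO-3 it fell to 56.7% (-0.82, SE 0.071, edgeR adjusted p 9.69e-11; 52.5% with the offsets). The difference between the knockouts passed in both fits (-0.38, 5.85e-05, and -0.53, 7.45e-08). INSIG2, an ER protein that retains the sterol sensor SCAP, fell to 52.1% of NC in ACSS2-KO-3 (-0.94, 3.97e-08), but stood at 0.0042 with the offsets (0.975) and at 0.10 with the averaged ones (0.442). Its level was 17.5 ± 1.14 CPM across NC, 14.8 ± 0.889 CPM across ACSS2-KO-2, where it did not pass (-0.24, 0.201), and 9.11 ± 1.23 CPM across ACSS2-KO-3, and its transcript has a GC content of 36.9%.

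NDRG1, a stress- and hypoxia-induced gene, lay above NC in the libraries of one knockout and below NC in those of the other. It had levels of 9.79, 9.26 and 11.1 CPM in the NC libraries, of 12.7, 13.1 and 11.7 CPM in those of ACSS2-KO-2 and of 6.80, 6.20 and 6.31 CPM in those of ACSS2-KO-3. In ACSS2-KO-2 the difference did not pass (0.31, edgeR adjusted p 0.113), while in ACSS2-KO-3 NDRG1 fell to 63.9% of NC (-0.65, SE 0.126, 6.54e-05; 53.8% with the offsets) and to 51.5% of ACSS2-KO-2 (-0.96, 1.39e-07). ANKRD37, a small HIF-1 target, had 1.42 ± 0.339 CPM in the NC libraries, 1.24 ± 0.133 CPM in those of ACSS2-KO-2 and 0.952 ± 0.364 CPM in those of ACSS2-KO-3. It did not pass in any comparison (-0.58 in ACSS2-KO-3, edgeR adjusted p 0.133; -0.72 with the offsets, 0.0655), except against NC without ACSS2-KO-3 replicate 1 (-0.93, edgeR adjusted p 0.042). Of its 2580 exon bases, 909 lie opposite UFSP2.

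**Figure D3:**
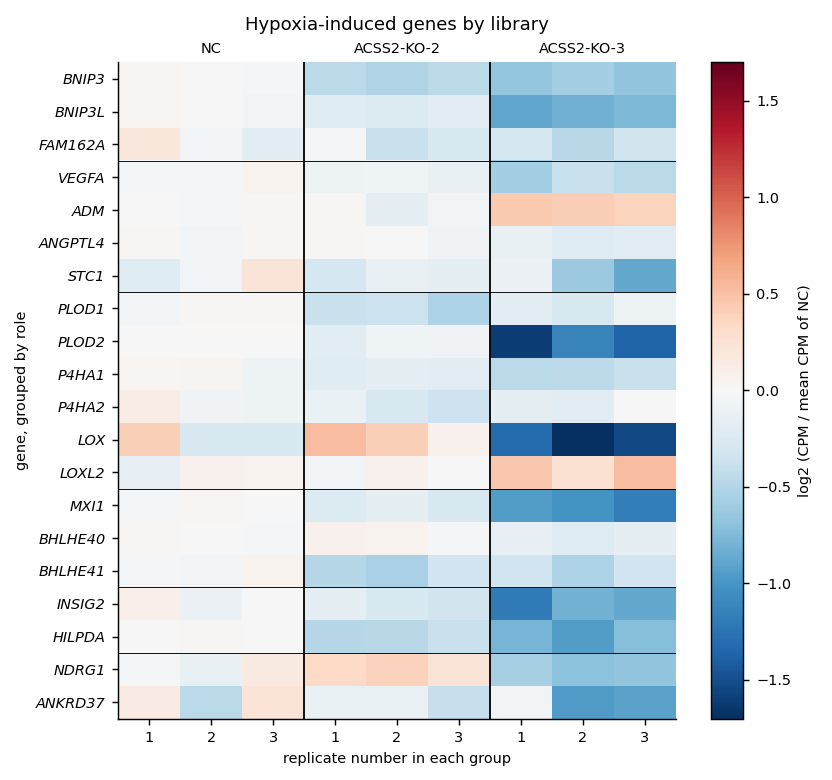
Log2 ratio of the CPM of each library to the mean CPM of NC for 20 hypoxia-induced genes (rows, grouped from top to bottom as mitochondrial, secreted, collagen-modifying, transcriptional repressor, lipid and other), with the 3 libraries of each group side by side; blue is below and red above NC. BNIP3, HILPDA, PLOD1 and BHLHE41 are blue in both knockouts, ADM and LOXL2 are reddest in ACSS2-KO-3, and NDRG1 is red in ACSS2-KO-2 and blue in ACSS2-KO-3.

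EGLN3, CA12 and CA9 had few counts. EGLN3 (PHD3), a hydroxylase gene strongly induced by HIF in many cells, gave 1, 1 and 1 counts (NC libraries), 22, 22 and 15 counts (ACSS2-KO-2) and 2, 2 and 4 counts (ACSS2-KO-3). Summed over the libraries and set against depth, ACSS2-KO-2 held 19.3 times the NC level (95% exact counting interval 6.27 to 96.0), and EGLN3 passed the test there (edgeR adjusted p 1.78e-05). CA12, a membrane carbonic anhydrase that buffers pH outside the cell, gave 4, 4 and 9 counts (NC), 36, 24 and 29 counts (ACSS2-KO-2) and 15, 5 and 6 counts (ACSS2-KO-3). For ACSS2-KO-2 its ratio to NC was 5.13 (3.03 to 9.19, edgeR adjusted p 0.000379), and for ACSS2-KO-3 it was 1.59 (0.832 to 3.13, 0.266). The libraries of ACSS2-KO-2 lay above all others for both genes. EGLN3 and CA12 passed the filter on low counts only through these libraries, where they were high. Their p-values are therefore no independent support for the rises. Against ACSS2-KO-2, the ACSS2-KO-3 libraries held 0.144 of the EGLN3 level (0.0595 to 0.303) and 0.311 of the CA12 level (0.193 to 0.486). Even in ACSS2-KO-2 the levels were low, with 1.20 ± 0.276 CPM for EGLN3 and 1.79 ± 0.244 CPM for CA12.

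A list of 11 transcripts had been picked from earlier results of these same data for being near 0 in NC and present in ACSS2-KO-2. They were CDKN2A, CDKN2B, IRS4, HOXA9, HOXA10, HOXD13, UCHL1, FBN2, SLIT2, LRP2 and SLC16A10. Their order of NC and ACSS2-KO-2 was thus set by the choice and cannot bear on EGLN3 or CA12. In ACSS2-KO-3 against NC, neither EGLN3 (edgeR adjusted p 0.174) nor CA12 (0.266) passed. All 11 were at 0 in NC, while their summed level ran from 50.6 to 52.8 CPM in the ACSS2-KO-2 libraries and from 3.46 to 4.50 CPM in the ACSS2-KO-3 libraries, where CDKN2B was at 0. The part of this list in the rises of EGLN3 and CA12 was not tested.

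CA9, the carbonic anhydrase most used as a hypoxia marker, gave 5, 7 and 4 counts (NC), 0, 1 and 1 counts (ACSS2-KO-2) and 0, 2 and 0 counts (ACSS2-KO-3). Against NC the ratio was 0.122 for ACSS2-KO-2 (95% exact counting interval 0.0137 to 0.521) and 0.130 for ACSS2-KO-3 (0.0145 to 0.554). The NC libraries lay above the other 6. The NC mean of 0.334 ± 0.109 CPM is close to the 3 counts (0.172 to 0.206 CPM) that a count of 0 in 1 library allows. Of its 1670 exon bases, 643 lie opposite ARHGEF39, which had 6013 counts over the 9 libraries against 20 for CA9, so these reads cannot be assigned to CA9 with certainty. These intervals and the floor cover counting error alone.

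**Figure D4:**
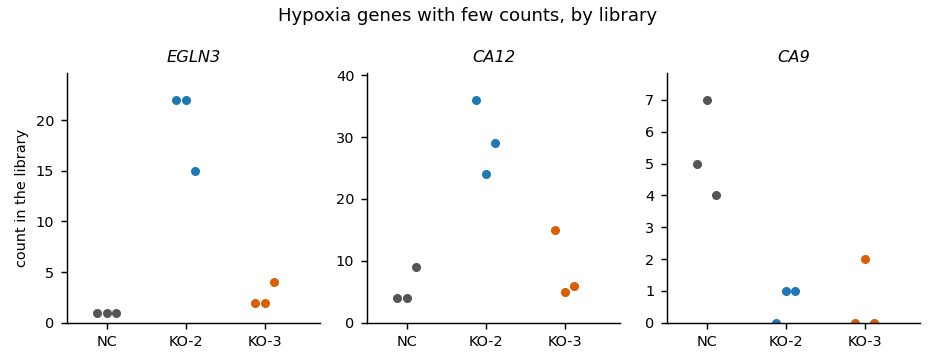
Counts of EGLN3, CA12 and CA9 in each of the 9 libraries (points, axes from 0, each gene on its own axis). EGLN3 and CA12 are highest in the 3 ACSS2-KO-2 libraries (15 to 22 and 24 to 36 counts), and CA9 is highest in the 3 NC libraries (4 to 7 counts).

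Across the genes, the ACSS2-KO-3 values were tied to GC content as they were across the transcriptome. For the 29 tested genes the Spearman correlation of the ACSS2-KO-3 fold change with the GC content of the transcript was 0.53, and -0.08 with the offsets, whereas it was 0.16 in ACSS2-KO-2; the genes share the same 9 libraries, so this is a description. The 11 genes under 45% GC had a median log2 fold change of -0.82 in ACSS2-KO-3 and of -0.12 with the offsets. The 11 genes from 45% to under 55% had medians of 0.19 and 0.06, and the 7 genes at 55% or more had -0.17 and -0.40. In the last group NDRG1, ANGPTL4 and PLOD1 fell, ADM (0.41) and LOXL2 (0.42) rose, and EGLN2 and ANKRD37 did not pass. The median of all genes was 0.24 from 55% to under 60% GC and 0.25 from 60% on. The offsets from 1 transcript moved the falls of PLOD2, LOX and MXI1 toward 0 and those of NDRG1, VEGFA, ANGPTL4, PLOD1, BHLHE40 and HILPDA away from it. With the averaged offsets LOX stood at -1.59 and MXI1 at -1.02, near their values from the counts as deposited, and PLOD2 at -0.24 (edgeR adjusted p 0.000195).

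**Figure D5:**
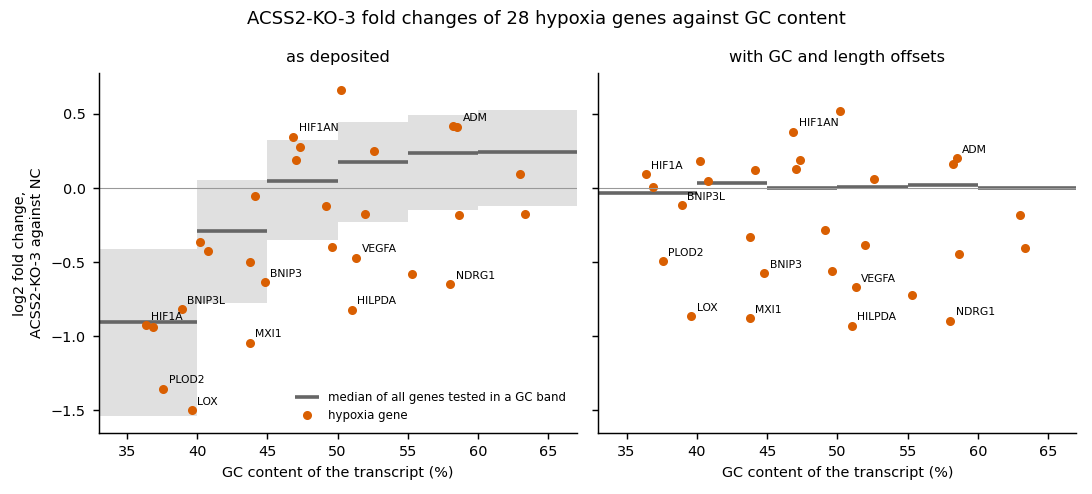
Log2 fold change in ACSS2-KO-3 against NC of 28 hypoxia genes (orange; EGLN3 and CA9 are left out) by the GC content of 1 transcript per gene in percent, from the counts as deposited (left) and with the offsets (right). Grey lines are the medians of all genes tested in 6 GC bands and the shaded boxes on the left their middle 50%; the medians rise from -0.90 to 0.25 on the left and lie near 0 on the right, where HILPDA, NDRG1, MXI1 and LOX are lowest.

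57 other hypoxia genes in 4 lists gave the setting. In ACSS2-KO-2, 3 of the 51 tested rose and 11 fell, beside 3.81% and 2.84% of all genes, with a median of -0.059 beside -0.0031 over all genes. Most of these falls came from other hypoxia-induced genes, of which 2 of 28 rose and 10 fell. The largest were PPP1R3C, a glycogen-targeting subunit of protein phosphatase (2.60 ± 0.186 against 5.22 ± 0.926 CPM in NC, edgeR adjusted p 0.00133), the liprin PPFIA4 (log2 fold change -0.95, 0.00169) and TMEM45A (-0.90, 0.0199, but 0.0584 to 0.121 on leaving out any single library among the first and second replicates of either group). Without NC replicate 2 or ACSS2-KO-2 replicate 2, 9 and 8 of the 51 passed in place of 14. Of the 13 HIF regulators tested, CITED4, a binding partner of the coactivators CREBBP and EP300, fell (-0.20, 0.0188, but 0.0514 to 0.105 on leaving out NC replicate 2, NC replicate 3 or any ACSS2-KO-2 library), and ARNT2, a paralogue of ARNT known from neurons, rose. ARNT2 gave 0, 1 and 3 counts (NC), 23, 21 and 28 counts (ACSS2-KO-2) and 6, 5 and 3 counts (ACSS2-KO-3). Its ratio to NC in ACSS2-KO-2 was 17.6 (95% exact counting interval 6.59 to 66.4, edgeR adjusted p 1.18e-05). The 2 rises among the other hypoxia-induced genes were AK4 (log2 fold change 0.62, edgeR adjusted p 3.01e-05) and FLT1 (4.84, 0.000135). FLT1 had a mean under 1 CPM even in ACSS2-KO-2. ARNT2 and FLT1, too, passed the filter on low counts only through the ACSS2-KO-2 libraries. EGLN3, CA12 and the 11 transcripts picked for being near 0 in NC were also highest in ACSS2-KO-2. Their part in the rises of ARNT2 and FLT1 was not tested.

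In ACSS2-KO-3, 42 of the 51 passed, 19 (37.3%) upward and 23 (45.1%) downward, beside 31.2% and 32.1% of all genes, with a median of -0.0076 beside -0.037 over all genes. After the offsets 15 (29.4%) passed upward and 19 (37.3%) downward, beside 32.4% and 26.5%. Of the 28 other hypoxia-induced genes, 24 passed, 6 upward and 18 downward (with the offsets 4 upward and 14 downward), led by PPFIA4, which fell from 7.14 ± 0.889 to 1.48 ± 0.495 CPM (edgeR adjusted p 1.79e-09, log2 fold change -2.27; -2.49 with the offsets), the cyclin CCNG2 (-1.48, 1.06e-12; -0.97) and PPP1R3C (-1.20, 1.25e-05; -0.84). Of the 13 HIF regulators, 8 rose and 3 fell, but 5 rose and 3 fell with the offsets, and 5 and 1 with the averaged offsets (beside 32.9% and 26.6% of all genes). The coactivator CREBBP rose from 98.7 ± 10.3 to 175 ± 9.28 CPM (0.82, 2.92e-11; 0.67) and CITED2, which competes with HIF for it, rose by 0.60 (7.47e-10; 0.49), while CUL2, the cullin scaffold of the VHL ligase, fell by 1.05 (3.3e-11; -0.33, and -0.07 with the averaged offsets, where it did not pass at 0.423).

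Of the 6 relatives of the collagen-modifying genes, 2 fell and 2 rose in ACSS2-KO-3, with and without the offsets. Of all genes, 32.1% fell and 31.2% rose there, or 26.5% and 32.4% with the offsets. LOXL4 and LOXL1 fell (-0.97, edgeR adjusted p 1.00e-06, and -0.96, 3.61e-05; -1.22 and -1.23 with the offsets). P4HB, the beta subunit of prolyl 4-hydroxylase, rose (0.46, 8.68e-09; 0.20 with the offsets), as did the lysyl hydroxylase PLOD3 (0.40, 2.4e-06; 0.13 with the offsets, 0.0422). In ACSS2-KO-2, 0 of these 6 passed in edgeR or DESeq2, with 3 at an unadjusted p under 0.05, and with the offsets 1 passed upward and 1 downward. Of all genes, 3.81% rose and 2.84% fell there, or 5.66% and 3.98% with the offsets. Of the 4 tested genes known as HIF-2 targets, 3 rose in ACSS2-KO-3: CCND1, cyclin D1, from 335 ± 8.97 to 539 ± 21.9 CPM (0.68, 2.11e-12; 0.51 with the offsets), TGFA, transforming growth factor alpha (1.35, 0.000106; 1.35), and the lipid-droplet protein gene PLIN2 (0.29, 0.00183; 0.17). These 3 rises of 4 stand beside 31.2% of all genes upward. The fourth gene, SLC11A2, an iron transporter gene, stood at 0.07 (edgeR adjusted p 0.325). With the offsets it passed upward (0.33, edgeR adjusted p 1.53e-05), so that 4 of the 4 rose, as they did with the averaged offsets. Of all genes, 32.4% and 32.9% rose in these fits, and no trend was read from 4 genes. In ACSS2-KO-2, 0 of these 4 passed in edgeR or DESeq2 and 0 had an unadjusted p under 0.05, with a median of 0.017. Set against ACSS2-KO-2, the ACSS2-KO-3 libraries had 18 of the 51 genes higher and 19 lower, beside 31.2% and 30.5% of all genes (15 and 19 with the offsets, beside 30.3% and 25.0%). With the counts as deposited, the 19 lower included ARNT2 and FLT1, which passed the filter only through the ACSS2-KO-2 libraries. In this comparison RORA, a nuclear receptor, had 0.543 ± 0.214 against 1.77 ± 0.498 CPM (log2 fold change -1.69, edgeR adjusted p 0.000372). Its call was lost with the offsets (-0.53, 0.263) but not with the averaged ones. Of the 12 genes picked here by size of change, 10 kept their calls with the offsets and 12 with the averaged ones.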

How the data were processed

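Polyadenylated RNA of 9 PANC-1 libraries was sequenced after a strand-marking (dUTP) preparation, per the labels' protocols. The authors deposited raw read counts per gene, 1 column per library. Per the submitters' processing notes, cutadapt 1.9, HISAT2 2.2.1, StringTie 2.1.6 and build GRCh38 were named, along with DESeq2 and edgeR. How strand was handled in the counting is not given in the sources used here, so reads of overlapping genes on opposite strands cannot be told apart with certainty. All 58735 genes match GENCODE release 29 in start, end and exon length.

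The counts were tested with edgeR 4.0.16 (R 4.3.3): TMM factors, a filter (minimum count 10, minimum total 15) that left 15811 genes, quasi-likelihood tests with 1 mean per group over all 9 libraries, and Benjamini-Hochberg adjustment over all genes, with a threshold of 0.05. A tested gene had a median of 314.8 counts per library, and the common dispersion was 0.00291. A percentage of NC is the fitted ratio. The offsets came per library from robust spline fits (5 degrees of freedom) to GC content and log2 length of 1 GENCODE transcript per gene. Transcripts of the GENCODE basic set came first, then protein-coding ones, and the longest of these was taken. Averaged offsets were added after seeing the data. Alternatives were RLE scaling, no filter, DESeq2 1.42.0, a replicate block, the offsets, only the 6 libraries compared, and leaving out each library. The script was tested on simulated counts. Figures used matplotlib 3.10.9.

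The 30 genes and all lists were chosen with earlier results of these data known. All 30 are named. From the other 4 lists, up to 3 genes per list and comparison are named, those with the largest fold change past the threshold and at least 1 CPM in the higher group. PLOD3, SLC11A2, AK4 and FLT1 were named in addition, after their values were seen. Promoter sequences were taken from RefSeq (GRCh38.p14). VHL, VEGFA, HILPDA, NDRG1, LOXL2, BNIP3L and STC1 were not matched there.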

Additional observations from a re-analysis of the deposited data

How the results depend on the processing

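In 17 alternative fits, the calls of the 29 genes kept their direction except where GC and length offsets were used. Log2 fold changes that changed sign, where called before or after, are given as the value with the offsets, with the replicate block and the offsets, and with the averaged offsets. Against NC in ACSS2-KO-3 they were 0.0915, 0.089 and 0.0385 for HIF1A, 0.0502, 0.05 and 0.2343 for P4HA1, and 0.0042, 0.0047 and 0.0961 for INSIG2. FAM162A had 0.1844 with the first and 0.188 with the second, where it passed upward (adjusted p 0.0284), and EGLN1, not called before, 0.2006 with the averaged offsets. In ACSS2-KO-3 against ACSS2-KO-2 they were 0.2228, 0.2223 and 0.4121 for P4HA1, and 0.206, 0.2059 and 0.2872 for INSIG2. FAM162A, not called before, had 0.3729 and 0.3797, BNIP3L 0.0833 and 0.0837 and PLOD1 -0.0369 and -0.0368 with the first and second, and the averaged offsets gave 0.1982 for EGLN1, not called before, and 0.0076 for BNIP3. The cause was not tested. Another 13 results changed sign in 39 fits without being called in either. RLE scaling, the unfiltered fit and DESeq2 ended the BNIP3L call in ACSS2-KO-2 (adjusted p 0.0606, 0.0947 and 0.157). The unfiltered fit and DESeq2 also ended the call of BNIP3 between the knockouts (0.0529 and 0.057), and DESeq2 the TMEM45A call (0.12). CA9, untested before, had -2.74 in ACSS2-KO-3 in the unfiltered fit (0.0453; DESeq2 0.0989). Leaving out 1 library at a time, 7 to 9 of the 29 genes passed in ACSS2-KO-2, 21 to 24 in ACSS2-KO-3 and 19 to 22 between the knockouts, and 8 to 14 of the other hypoxia genes in ACSS2-KO-2. Same-numbered libraries did not deviate together (correlations -0.041 to 0.056, 0 of 9 over 0.1). With the replicate block 8, 22 and 22 of the 29 genes passed in the 3 comparisons, as without it, and it changed no other call. With block and offsets the numbers were 10, 18 and 18. From the counts as deposited and all 9 libraries, 1052, 10006 and 9756 of all 15811 genes passed in these comparisons. The shares of all genes were not taken without single libraries or with the block. The counts in those fits are thus no result about the 29 genes. Depth limits EGLN3, CA12, CA9, LOX, STC1 and ANKRD37, which were at most at 3.52 CPM in any library.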
